A study of Mus musculus with 7 samples.

Results

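The expression of 9 genes that mark B cells was examined in the lungs of bleomycin-challenged mice. The genes were Cd79a, Cd79b, Ms4a1, Cd22, Fcer2a, Blk, Fcrla, Pax5 and Ebf1. They were taken by symbol from the table of 55401 genes, each symbol matched 1 gene, and all 9 members passed the filter on low counts. The libraries, 1 per mouse, came from right lung lobes. They were of 4 mice given bleomycin alone (BLM) and of 3 given bleomycin and then repeated hyperbaric oxygen, HBO (BLM+HBO). All 7 were male C57BL/6 mice of 6 to 8 weeks and 20 to 25 g, all had bleomycin, a chemotherapy drug that damages lung epithelium, instilled into the trachea, and all tissue was taken on day 21. The BLM+HBO mice breathed pure oxygen in a pressure chamber at 2.5 ATA for 90 min per day on 14 consecutive days from day 7. The BLM mice were placed in the chamber without pressurized oxygen according to the sample records and were untreated according to the methods. Mice that lost little weight after bleomycin had been left out of the study, and no lung without bleomycin was analysed here, so the comparison shows BLM+HBO against BLM and not a return towards an uninjured lung.

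B cells recognise antigen with a membrane immunoglobulin that signals through the CD79A and CD79B chains. The transcription factors EBF1 and PAX5 set up and hold the B cell programme, and when a B cell becomes an antibody-secreting plasma cell it switches off PAX5 and most of its targets while making large amounts of immunoglobulin. In the lung B cells are scattered through the tissue, and in chronic inflammation they also gather in lymphoid aggregates beside airways and vessels. EBF1 is the least specific of the 9 markers, since mesenchymal cells and adipocytes use it as well.

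The libraries held between 18157161 and 26365969 counts. Alveolar type 2 markers (Sftpc, Sftpb, Sftpa1, Abca3 and Lamp3) summed to between 8087 and 25580 CPM per mouse, as fits the labelled tissue. CPM, the usual depth-scaled count, was taken on TMM-normalized library sizes. BLM+HBO 2 stood apart from its group. It differed from BLM 4 by a chi-square of 13 per gene, where the pairs of mice within a group differed by at least 22.1. Heart muscle genes also moved with the groups. The 6 listed, Actc1, Myl7, Myh6, Tnnt2, Tnni3 and Mb, summed to between 55.3 and 162.8 CPM in BLM and to 602, 481 and 144 CPM in BLM+HBO 1, 2 and 3, all were detected, and their part in the results below was not tested.

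B cell identity genes were on average higher in the BLM+HBO group, and their call depended on 1 mouse. All 9 genes had a positive log2 fold change, with a median of 0.90 against 0.01 over all 17465 genes tested, and 8 of them had an unadjusted P below 0.05 (edgeR quasi-likelihood test). A gene was called at the study's own limits, which were 1.5 for the fold change and 0.05 for the unadjusted P. By these, 7 of the 9 were called higher and 0 lower, where 3.40% of all tested genes were called higher, 2.89% lower and 6.29% in either direction. Cd22 and Fcrla were the members not called. None passed after Benjamini-Hochberg adjustment over all genes, where edgeR called 0 genes in all, with 1861 at unadjusted P below 0.05, limma-trend called 0 and DESeq2 called 151, among them Pax5. The count rested on BLM+HBO 1, which held the highest level of all 9 genes. Without this mouse 1 member, Pax5, was called, where 1.93% of all tested genes were called higher, and the median log2 fold change of the members was 0.54. Without BLM+HBO 2 all 9 were called, where 5.29% of all tested genes were called higher. In these bulk samples a difference in the number of cells of a type and one in RNA per cell cannot be told apart.

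**Figure D1:**
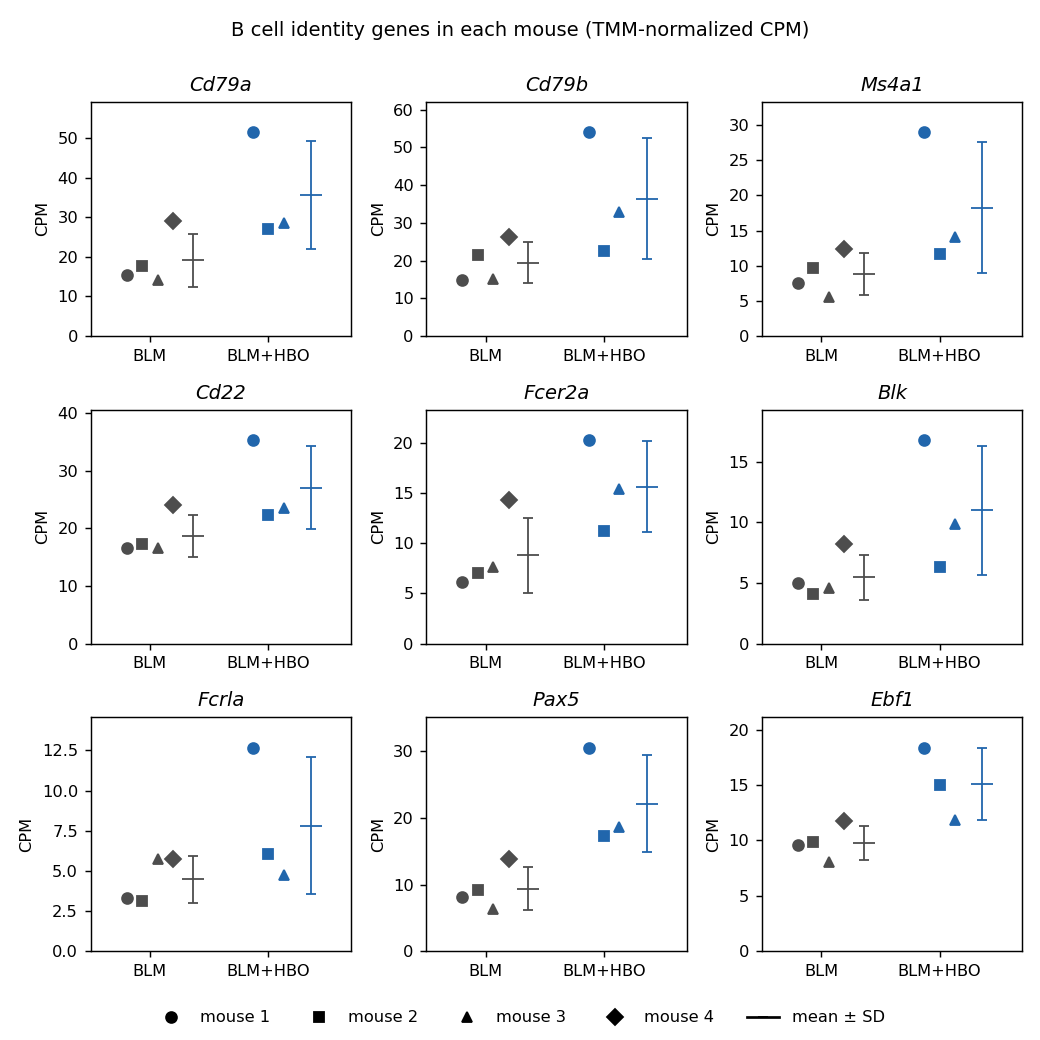
Level of each of the 9 B cell identity genes in each mouse, in TMM-normalized CPM on a linear axis from 0. Symbols mark the mouse number, grey is BLM and blue BLM+HBO, and the bar beside each group is its mean with SD (n = 4 and n = 3). BLM+HBO 1 is the highest mouse in all 9 panels, and the groups do not overlap for Pax5 and Ebf1.

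Cd79a and Cd79b encode the paired signalling chains of the antigen receptor. Cd79a (ENSMUSG00000003379.7, chromosome 7, 24897381 to 24902197 on GRCm38) had 15.4, 17.8, 14.2 and 29.0 CPM in BLM 1 to BLM 4 and 51.4, 27.1 and 28.5 CPM in BLM+HBO 1 to BLM+HBO 3. BLM 4 lay above 2 of the 3 BLM+HBO mice, so the groups overlapped. Its mean was 19.1 ± 6.75 CPM in BLM (SD, n = 4) against 35.7 ± 13.7 CPM in BLM+HBO (SD, n = 3). The log2 fold change was 0.90 (standard error 0.29, adjusted P = 0.423 by edgeR).

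Cd79b (ENSMUSG00000040592.11, chromosome 11, 106311341 to 106314762) followed its partner closely, with 14.8, 21.4, 15.1 and 26.1 CPM in BLM and 54.0, 22.4 and 33.0 CPM in BLM+HBO. Again BLM 4 lay above BLM+HBO 2 and the groups overlapped. The means were 19.4 ± 5.44 CPM (SD, n = 4) and 36.4 ± 16.1 CPM (SD, n = 3). For Cd79b the log2 fold change was 0.91 (standard error 0.30, adjusted P = 0.423 by edgeR). The ratio of Cd79b to Cd79a counts stayed between 0.827 and 1.21 over the 7 mice, while the level of Cd79a itself differed 3.62-fold between the lowest and the highest mouse.

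The 250 bases before the RefSeq start of Cd79a are shown because this gene is a textbook target of EBF1, PAX5 and ETS factors, and those before Pax5 because it had the largest log2 fold change of the 9 genes. The sequences are RefSeq's on GRCm38.p6, written 5′ to 3′ on the strand of the gene, with capitals for matches to the EBF arm motif ATTCCC, the EBF palindrome core CCCNNGGG, the octamer ATGCAAAT or the ETS core AGGAAGT on either strand. The Cd79a window is chr7:24897247-24897496 on the plus strand, of which the last 116 bases lie inside the gene model of the count table, and the Pax5 window is chr4:44710695-44710944 on the minus strand.
Cd79a: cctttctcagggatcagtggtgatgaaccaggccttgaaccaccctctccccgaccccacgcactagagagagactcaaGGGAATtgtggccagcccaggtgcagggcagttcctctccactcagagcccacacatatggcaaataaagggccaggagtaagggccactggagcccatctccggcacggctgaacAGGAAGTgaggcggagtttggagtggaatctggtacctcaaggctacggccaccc
Pax5: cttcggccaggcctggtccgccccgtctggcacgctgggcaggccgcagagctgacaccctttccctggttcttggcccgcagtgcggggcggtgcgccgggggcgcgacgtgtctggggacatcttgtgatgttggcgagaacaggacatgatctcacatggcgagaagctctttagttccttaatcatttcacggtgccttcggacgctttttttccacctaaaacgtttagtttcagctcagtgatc

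The Cd79a window held 1 EBF arm motif on the opposite strand, starting 171 bases before the RefSeq start, and 1 ETS core, starting 55 bases before it. The Pax5 window held none of the 4 motifs. RefSeq windows were found for 6 members (Cd79a, Cd22, Fcer2a, Fcrla, Pax5 and Ebf1), 9 windows in all because Fcer2a and Ebf1 have several starts, and not for Cd79b, Ms4a1 and Blk. The EBF arm motif was in 4 of these 9 windows, from 3 genes, against 11.4% of all 32851 windows of this length. The palindrome core was in 1 of 9 (Cd22) against 11.8%, the ETS core in 1 of 9 against 7.69% and the octamer in 0 of 9 against 1.60%. Apart from that of Cd79a, the windows with the arm motif were windows 2 and 3 of Fcer2a and window 2 of Ebf1. These, and the Cd22 window, lay with all 250 bases inside the gene model of the count table. The motifs were chosen with the Cd79a sequence in view and a match is a description only. In a full EBF palindrome the arm motif and the palindrome core overlap.

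Among the surface receptors, Ms4a1 had the largest log2 fold change. Ms4a1 (ENSMUSG00000024673.9, chromosome 19, 11249675 to 11266241) encodes CD20, the target of B cell depleting antibodies. It had 7.60, 9.69, 5.49 and 12.4 CPM in BLM and 29.0, 11.7 and 14.1 CPM in BLM+HBO, and only BLM 4 and BLM+HBO 2 crossed. Ms4a1 averaged 8.80 ± 2.96 CPM (SD, n = 4) and 18.3 ± 9.35 CPM (SD, n = 3). On the log2 scale BLM+HBO was higher by 1.05 (standard error 0.35, adjusted P = 0.423 by edgeR).

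Cd22 encodes an inhibitory lectin that binds sialic acid and dampens the antigen receptor. Cd22 (ENSMUSG00000030577.14, chromosome 7, 30865402 to 30880342) had 16.5, 17.2, 16.6 and 24.1 CPM in BLM and 35.3, 22.3 and 23.4 CPM in BLM+HBO. BLM 1, 2 and 3 lay close together, and BLM 4 was above both BLM+HBO 2 and BLM+HBO 3. Cd22 averaged 18.6 ± 3.66 CPM (SD, n = 4) and 27.0 ± 7.20 CPM (SD, n = 3). With a log2 fold change of 0.54 (standard error 0.20, adjusted P = 0.438 by edgeR) it did not reach the fold change of 1.5. Its exons share 479 bases with an antisense gene, and reads there would not have been counted for either gene.

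Fcer2a encodes CD23, the low-affinity IgE receptor of follicular B cells. Fcer2a (ENSMUSG00000005540.10, chromosome 8, 3681737 to 3694175) had 6.17, 7.05, 7.63 and 14.3 CPM in BLM and 20.3, 11.2 and 15.4 CPM in BLM+HBO. The other BLM mice lay below every BLM+HBO mouse, and BLM 4 lay between BLM+HBO 2 and BLM+HBO 3. The respective means were 8.79 ± 3.74 CPM (SD, n = 4) and 15.6 ± 4.55 CPM (SD, n = 3). This gave a log2 fold change of 0.83 (standard error 0.31, adjusted P = 0.438 by edgeR). Of the 7 called members it lost its call most often, in 5 of the 7 fits with a mouse left out, and its log2 fold change ranged from 0.60 to 1.17 over these fits.

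Blk and Fcrla work inside the cell. Blk (ENSMUSG00000014453.4, chromosome 14, 63372836 to 63417037) is a Src family kinase downstream of the antigen receptor and had 4.96, 4.06, 4.61 and 8.21 CPM in BLM and 16.8, 6.32 and 9.86 CPM in BLM+HBO. BLM 4 again exceeded BLM+HBO 2. Blk averaged 5.46 ± 1.87 CPM (SD, n = 4) and 11.0 ± 5.31 CPM (SD, n = 3). Its log2 fold change was 1.004 (standard error 0.35, adjusted P = 0.423 by edgeR), and 0.57 without BLM+HBO 1.

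Fcrla (ENSMUSG00000038421.13, chromosome 1, 170917576 to 170927583) encodes an Fc receptor-like protein that stays in the secretory pathway of B cells. It was the member with the lowest counts, between 56 and 238 reads per mouse. It had 3.30, 3.16, 5.76 and 5.74 CPM in BLM and 12.7, 6.08 and 4.72 CPM in BLM+HBO, and BLM+HBO 3 lay below 2 of the BLM mice. Fcrla averaged 4.49 ± 1.46 CPM (SD, n = 4) and 7.82 ± 4.25 CPM (SD, n = 3). Its log2 fold change of 0.79 (standard error 0.38, adjusted P = 0.492 by edgeR) did not pass an unadjusted P of 0.05. Without BLM+HBO 1 it was 0.26.

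Pax5, the factor that keeps B cells committed, had the largest log2 fold change of the 9 genes. Pax5 (ENSMUSG00000014030.15, chromosome 4, 44524757 to 44710487) had 8.20, 9.13, 6.37 and 13.9 CPM in BLM and 30.5, 17.3 and 18.6 CPM in BLM+HBO, and every BLM+HBO mouse lay above every BLM mouse. Its group means were 9.40 ± 3.21 CPM (SD, n = 4) against 22.1 ± 7.28 CPM (SD, n = 3). Its log2 fold change was 1.23 (standard error 0.28, adjusted P = 0.423 by edgeR). By DESeq2 the adjusted P was 0.00961, and over all alternatives it ranged from 0.00353 to 0.802. Pax5 was called higher in all 7 fits with a mouse left out, with log2 fold changes between 0.93 and 1.48. Its exons share 761 bases with antisense genes, and reads there would not have been counted.

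Ebf1 (ENSMUSG00000057098.14, chromosome 11, 44617317 to 45008091) had 9.58, 9.86, 8.02 and 11.7 CPM in BLM and 18.4, 15.0 and 11.9 CPM in BLM+HBO. The groups did not overlap, though BLM 4 and BLM+HBO 3 were nearly level. Across all tested genes 4.05% were higher in BLM+HBO without overlap of the groups, and among the members this held for 2 of 9, Pax5 and Ebf1. Ebf1 averaged 9.80 ± 1.53 CPM (SD, n = 4) and 15.1 ± 3.26 CPM (SD, n = 3). BLM+HBO was higher by 0.62 on the log2 scale (standard error 0.20, adjusted P = 0.423 by edgeR). Ebf1 was called in 5 of the 7 fits with a mouse left out, the exceptions being those without BLM 3 and without BLM+HBO 1. It encodes the factor that opens the B cell programme together with PAX5. From the highest to the lowest, the BLM+HBO mice had the order 1, 2, 3 in Ebf1 and in Fcrla. The other 7 members were lowest in BLM+HBO 2. The summed heart muscle genes had the order 1, 2, 3 as well. So did the summed T cell, lineage transcription factor and survival and homing genes, so this order of 3 mice was not particular to heart muscle. The BLM mice had the order 4, 2, 1, 3 in Ebf1 and 4, 2, 3, 1 in the heart muscle genes.

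**Figure D2:**
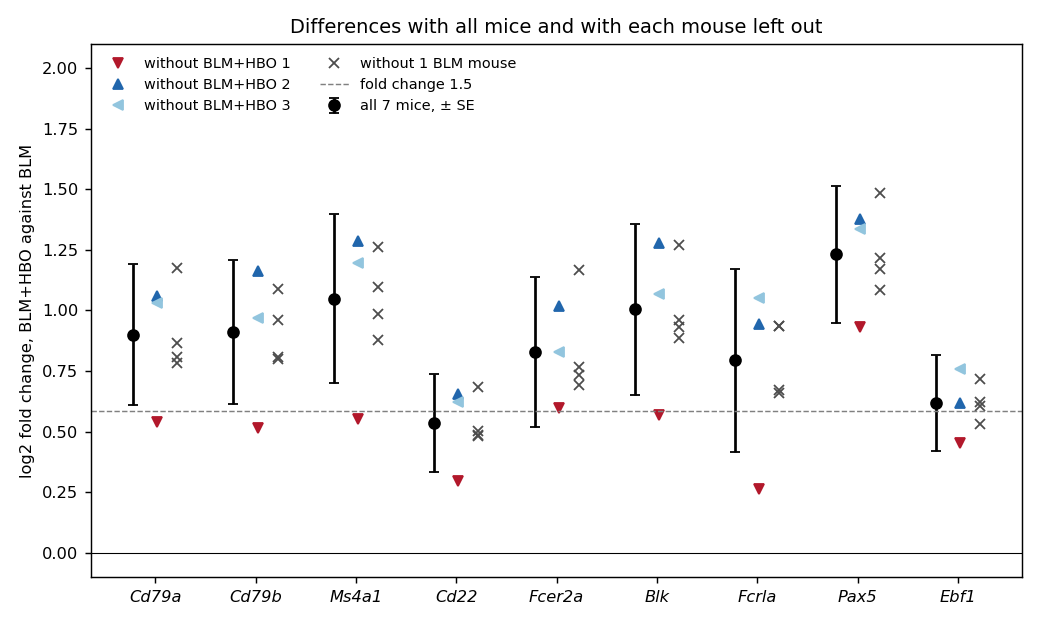
Log2 fold change of BLM+HBO over BLM for each of the 9 genes, in the fit of all 7 mice with its standard error and in the 7 fits that each leave out a mouse. Leaving out BLM+HBO 1 gave the lowest value for every gene, from 0.26 for Fcrla to 0.93 for Pax5.

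Summed over the 9 genes, the level was 86.5, 99.4, 83.8 and 145.5 CPM in BLM 1 to BLM 4 and 268, 139.3 and 159.4 CPM in BLM+HBO 1 to BLM+HBO 3. BLM+HBO 1 stood above all other mice, and BLM 4 lay between BLM+HBO 2 and BLM+HBO 3. BLM 4 was the highest BLM mouse for 8 members, the exception being Fcrla, and BLM+HBO 2 was below BLM 4 for 6 of the 9. The mean of the sum was 103.8 ± 28.6 CPM in BLM (SD, n = 4) against 189 ± 69.4 CPM in BLM+HBO (SD, n = 3). The sum of a list chosen with results known was given no test.

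Per kilobase of gene model the receptor chains were the most abundant members in both groups. Cd79b had 13.5 ± 3.80 CPM per kb in BLM and 25.5 ± 11.2 in BLM+HBO, and Cd79a had 13.1 ± 4.63 and 24.5 ± 9.38 CPM per kb. Below them, Cd22 had 3.69 ± 0.725 and 5.36 ± 1.43 CPM per kb, and Fcer2a had 2.84 ± 1.21 and 5.06 ± 1.47. Fcrla followed with 2.57 ± 0.835 and 4.48 ± 2.44 CPM per kb, Blk with 2.02 ± 0.694 and 4.07 ± 1.97, and Ms4a1 with 1.42 ± 0.479 and 2.95 ± 1.51. Ebf1 was lowest, with 1.005 ± 0.157 CPM per kb in BLM and 1.54 ± 0.334 in BLM+HBO, and Pax5 was just above it, with 1.06 ± 0.363 and 2.50 ± 0.823. The order was the same in both groups. Neighbours in it differed by less than the larger of their SDs, except for Cd79a over Cd22 in both groups and Pax5 over Ebf1 in BLM+HBO. The length counts all annotated exons of a gene together, so long gene models, among them Pax5 (8853 bases) and Ebf1 (9756 bases), have lower values per kilobase at the same number of reads.

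Most members varied less in proportion to Cd79a than in level. The ratio of counts to Cd79a spanned 1.38-fold over the 7 mice for Fcer2a, 1.46-fold for Cd79b, Ms4a1 and Pax5 and 1.52-fold for Blk. It spanned more for Cd22 (1.71-fold), Ebf1 (1.75-fold) and Fcrla (2.44-fold). Pearson's r of log2 CPM between members, over the same 7 libraries, had a median of 0.938 for the 28 pairs without Ebf1 and 0.876 for the 8 pairs with it. After removal of the group means the medians were 0.887 and 0.732. These correlations are descriptions over mice that share a library, a depth and a group for all genes.

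**Figure D3:**
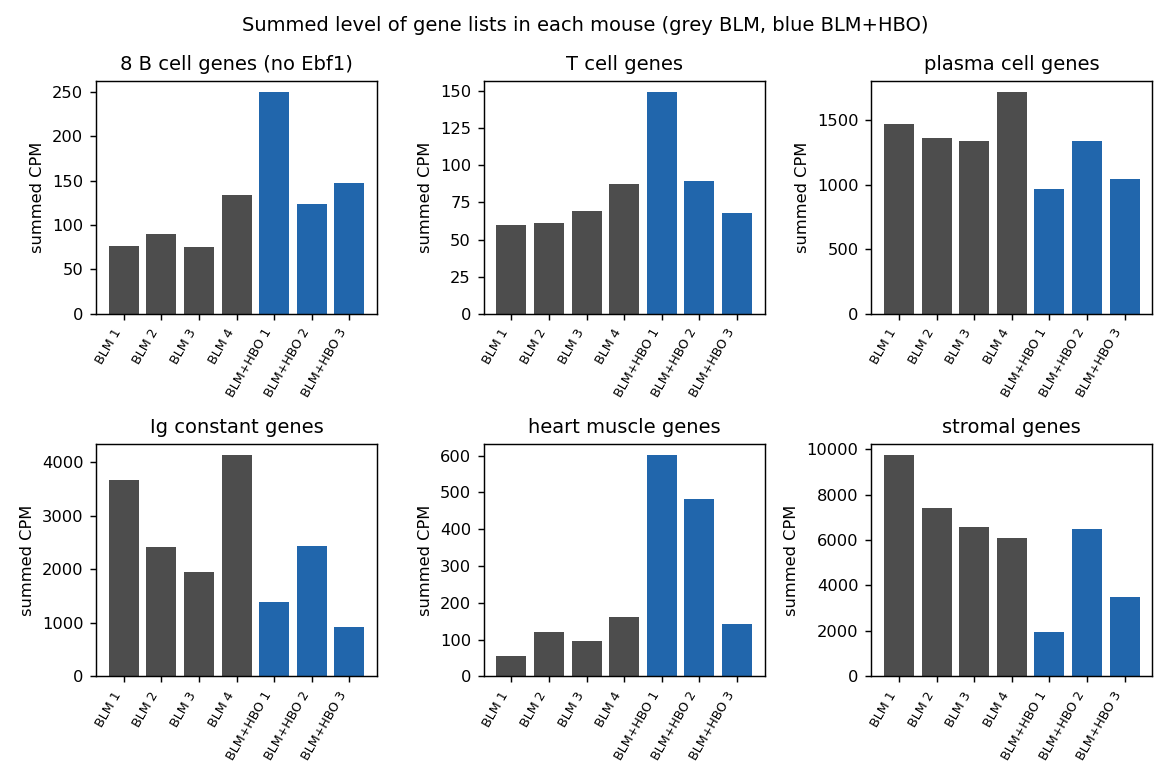
Summed level of 6 gene lists in each mouse, in TMM-normalized CPM on linear axes from 0, with grey bars for BLM and blue bars for BLM+HBO. The 8 members without Ebf1 and the T cell genes are highest in BLM+HBO 1 (249.9 and 149.4 CPM), where the stromal genes are lowest (1965 CPM), and the immunoglobulin constant genes range from 932 CPM in BLM+HBO 3 to 4139 CPM in BLM 4.

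Other genes of the B cell were read from lists grouped by role, against 5.11% of all tested genes at unadjusted P below 0.05 and higher and 5.54% and lower (edgeR). In the list of antigen coreceptor and signalling genes 2 of 13 passed and were higher, 0 were lower, and the median log2 fold change was 0.05. Both are genes largely kept to B cells. Cr2, the complement receptor CD21, averaged 2.79 ± 0.444 CPM in BLM (SD, n = 4) against 6.71 ± 3.49 CPM in BLM+HBO (SD, n = 3), or 1.26 higher on the log2 scale (standard error 0.34). For Bank1, a B cell scaffold protein, the value was 0.94 (standard error 0.36). The groups did not overlap for Cr2 or Bank1. Kinases and adaptors that myeloid cells use as well, such as Syk, Lyn, Btk and Blnk, were among the other 11 genes, whose log2 fold changes lay between -0.08 and 0.31. The largest of these was that of Prkcb, and Pik3cd had 0.17 (standard error 0.14).

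Of 7 inhibitory receptor genes of B cells 3 were higher at unadjusted P below 0.05 and 1 was lower, with a median log2 fold change of 0.76. Siglecg, a sialic acid lectin related to Cd22, was 7.08 ± 1.58 CPM in BLM (SD, n = 4) against 15.0 ± 3.24 CPM in BLM+HBO (SD, n = 3) without overlap, with a log2 fold change of 1.08 (standard error 0.22). Btla, the receptor for HVEM, had 1.10 (standard error 0.32) and Fcrl1 had 0.93 (standard error 0.33). The lower gene was Fcgr2b, the inhibitory IgG receptor of B cells and of myeloid cells, at 142 ± 21.6 CPM in BLM (SD, n = 4) against 83.6 ± 32.5 CPM in BLM+HBO (SD, n = 3), with a log2 fold change of -0.77 (standard error 0.23).

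Among 8 further lineage transcription factors 2 were higher and 0 lower, with a median log2 fold change of 0.18. Spib, an ETS factor of B cells and plasmacytoid dendritic cells, was 8.72 ± 2.13 CPM in BLM (SD, n = 4) against 15.5 ± 1.63 CPM in BLM+HBO (SD, n = 3) without overlap, with a log2 fold change of 0.83 (standard error 0.20). Pou2f2, which encodes the octamer factor OCT2, had 0.51 (standard error 0.22) and passed in 2 of the 7 fits with a mouse left out. Ikzf3 had 0.68 (standard error 0.34) and Foxo1 0.10 (standard error 0.11), neither past P of 0.05.

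Genes for survival and homing had 2 of 12 higher and 1 lower, with a median log2 fold change of 0.40. Cxcr5, the receptor that leads B cells into follicles, was higher by 1.12 on the log2 scale (standard error 0.31). Its ligand Cxcl13 was lower, with -0.75 (standard error 0.32) and means of 17.6 ± 7.46 CPM in BLM (SD, n = 4) against 10.5 ± 2.68 CPM in BLM+HBO (SD, n = 3). Cxcl13 was past an unadjusted P of 0.05 in 3 of the 7 fits with a mouse left out and had -0.42 without BLM 1, whereas Cxcr5 was past it in all 7. Fcmr, the Fc receptor for IgM, had 1.21 (standard error 0.37), and Ccr7, the lymph node homing receptor, had 0.67 (standard error 0.30) and did not pass P of 0.05.

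Genes of the mature B cell surface and of antigen presentation had 4 of 10 higher and 0 lower, with a median log2 fold change of 0.33. Ighd, the constant region of the IgD that naive B cells carry, was 25.7 ± 4.16 CPM in BLM (SD, n = 4) against 47.9 ± 22.4 CPM in BLM+HBO (SD, n = 3) without overlap, with a log2 fold change of 0.90 (standard error 0.26). H2-Ob, a B cell enriched modulator of peptide loading, had 1.11 (standard error 0.33), H2-DMb2 had 0.65 (standard error 0.17) and Ciita, the master regulator of MHC class II genes, had 0.33 (standard error 0.13).

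Germinal centre and precursor genes gave no call. Of the germinal centre genes, 0 of 5 tested passed in either direction, with a median log2 fold change of 0.08, and Rgs13 was below the filter. S1pr2 had -0.28 (standard error 0.13), Gcsam 0.80 (standard error 0.39), Mef2b 0.28 (standard error 0.37), Bcl6 0.08 (standard error 0.17) and Fas 0.01 (standard error 0.12). In BLM, S1pr2, Fas and Bcl6 averaged 72.4 ± 7.89, 61.8 ± 5.22 and 37.9 ± 3.73 CPM (SD, n = 4). Gcsam and Mef2b were far lower, at 2.09 ± 0.830 and 0.644 ± 0.101 CPM (SD, n = 4). Of the precursor genes, 0 of 3 tested passed, and Vpreb2, Igll1, Rag1, Rag2 and Dntt were below the filter. Vpreb3 had 0.66 (standard error 0.30), Il7r 0.37 (standard error 0.32) and Vpreb1 0.17 (standard error 0.54), with a median of 0.37. Which cells expressed the germinal centre and precursor genes was not tested.

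**Figure D4:**
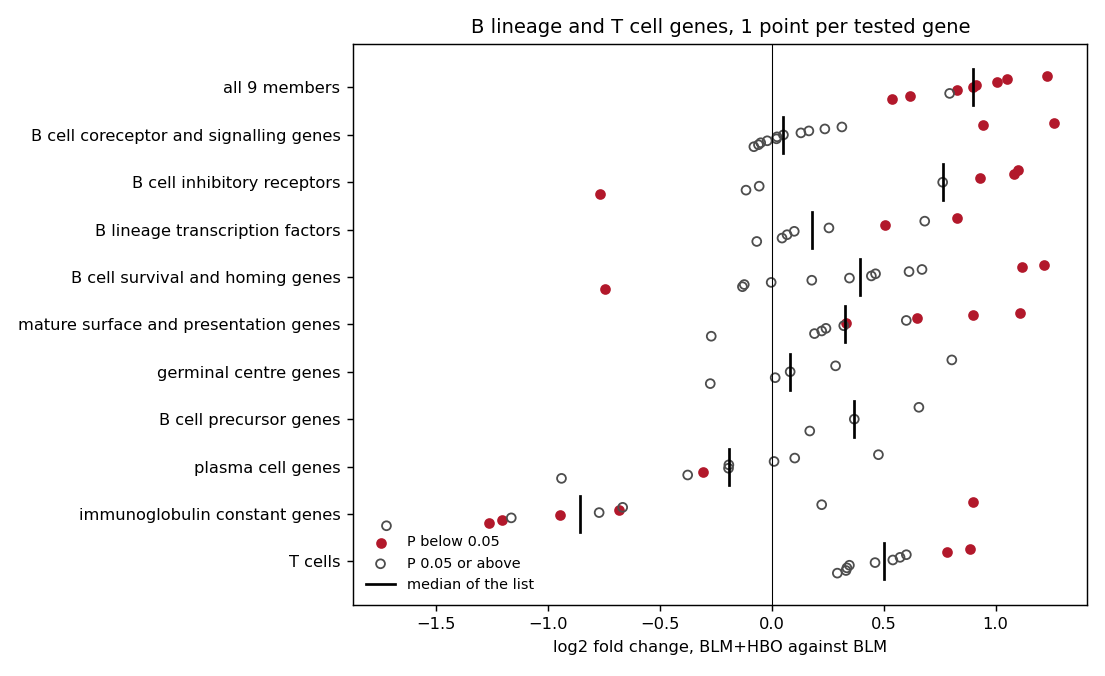
Log2 fold change of BLM+HBO over BLM for each tested gene of 11 lists, with filled points for an unadjusted P below 0.05 (edgeR), open points for the others and a vertical line at the median of each list. The median is 0.90 for the 9 members, lies between 0.05 and 0.76 for the other B cell lists, and is -0.19 for plasma cell genes and -0.86 for immunoglobulin constant genes.

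Plasma cell and immunoglobulin constant genes had negative medians. Of the immunoglobulin constant genes, 4 of 10 were lower and 1 higher at unadjusted P below 0.05, with a median log2 fold change of -0.86. The higher gene was Ighd. Igha, the constant region of IgA, was 1676 ± 540.1 CPM in BLM (SD, n = 4) against 727 ± 574 CPM in BLM+HBO (SD, n = 3), with a log2 fold change of -1.20 (standard error 0.46). Ighg1 had -1.27 (standard error 0.43), Igkc -0.95 (standard error 0.37) and Iglc2 -0.68 (standard error 0.30). The count of lower genes rested on single mice. It was 1 of 10 without BLM 4 or BLM+HBO 3, 2 of 10 without BLM 1 or BLM+HBO 1 and 6 of 10 without BLM 3, and the median ranged from -1.04 to -0.57 over these fits, with Ighd higher throughout. The number of all tested genes called lower, past both limits, also moved over these fits. It ranged from 303 of 17249 without BLM 1 to 968 of 17879 without BLM+HBO 2. The constant genes summed to 3666, 2422, 1957 and 4139 CPM in BLM and to 1392, 2442 and 932 CPM in BLM+HBO. BLM+HBO 2 lay within the BLM range, the other BLM+HBO mice below it.

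Of the plasma cell genes, 1 of 8 tested was lower and 0 higher, with a median log2 fold change of -0.19, and Tnfrsf17 was below the filter. The lower gene was Xbp1, a regulator of secretion that many lung cells express, with -0.31 (standard error 0.13), and it passed in 1 of the 7 fits with a mouse left out. Jchain, the joining chain of secreted IgA and IgM, had 454, 324, 306 and 680 CPM in BLM and 142, 413 and 134 CPM in BLM+HBO. BLM+HBO 1 and 3 lay below every BLM mouse and BLM+HBO 2 among them, and the log2 fold change was -0.94 (standard error 0.42, adjusted P = 0.471 by edgeR). Txndc5 and Sdc1 both had -0.19 (standard errors 0.11 and 0.12), and Derl3 had -0.38 (standard error 0.29). The other 3 genes were positive. Mzb1 had 0.48 (standard error 0.54), Irf4 0.10 (standard error 0.28) and Prdm1 0.01 (standard error 0.25). Sdc1 and Txndc5 averaged 456 ± 41.2 and 259 ± 19.9 CPM in BLM (SD, n = 4), and the cells that expressed them were not tested.

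The member counts were set beside markers of other cells, whose part in the results was not tested. T cell genes were higher in the same mouse, with all 10 log2 fold changes positive, a median of 0.50 and 2 of 10 (Trbc2 and Cd2) past P of 0.05. Mouse Cd2 is not confined to T cells. It had 21.9, 10.9 and 14.1 CPM in BLM+HBO 1 to 3, lowest in BLM+HBO 2 as were 7 of the members. The 10 genes summed to 60.1, 61.3, 69.0 and 87.3 CPM in BLM and to 149.4, 89.7 and 68.1 CPM in BLM+HBO, so BLM+HBO 1 was again the highest and BLM 4 the highest BLM mouse. With a mouse left out, the count of T cell genes past P of 0.05 ranged from 0 of 10 without BLM+HBO 1 to 6 of 10 without BLM+HBO 3, and the median from 0.13 to 0.72 in the same fits. Of all tested genes, 2.82% were higher at this P without BLM+HBO 1 and 3.75% without BLM+HBO 3. Fibroblast and pericyte genes, which bear on Ebf1, had a negative median, with 4 of 8 lower (Col1a1, Pdgfra, Col3a1 and Col1a2), 1 higher (Tcf21) and a median of -0.53. The count of lower genes was 0 of 8 without BLM 1 or BLM+HBO 3, 1 without BLM 2 or BLM+HBO 1, 5 without BLM 3 or BLM 4 and 6 without BLM+HBO 2, and the median ranged from -0.94 to -0.43. Their sum ranged from 6069 to 9746 CPM in BLM and from 1965 to 6484 CPM in BLM+HBO. As given above, the number of all tested genes called lower moved as well, lowest without BLM 1 and highest without BLM+HBO 2.

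Adipocyte genes, also relevant to Ebf1, were low throughout, at 3.25 to 6.71 CPM in BLM and 5.74 to 14.5 CPM in BLM+HBO in sum. Plin1, Lep and Retn were below the filter, and 1 of 3 tested, Adrb3, was higher with a median of 0.93. Plasmacytoid dendritic cell genes had 2 of 6 higher, Siglech and Cox6a2, with a median of 0.16, and Cox6a2 is also a muscle gene. Of the lymph node stroma genes, Ccl21a, Ccl19, Madcam1 and Glycam1 were below the filter, and 0 of 1 tested (Chst4) passed P of 0.05. Chst4 averaged 5.43 ± 1.99 CPM in BLM (SD, n = 4) and 5.37 ± 2.48 CPM in BLM+HBO (SD, n = 3). It made up most of the sum of this list, which was 3.08 to 8.84 CPM over all mice. The presence of lymph node tissue was not tested. Thymus genes had 0 of 2 past P of 0.05 (Cd4 and Cd8b1), with Ptcra, Dntt and Rag1 below the filter and a sum of 8.96 to 22.4 CPM. Heart muscle genes were higher in 6 of 6 with a median of 1.72, alveolar type 2 genes in 1 of 5 (Sftpa1) with a median of 0.45, and capillary endothelium genes in 0 of 5 with a median of 0.27.

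The lists moved with single mice too, in both directions. Over the 7 fits with a mouse left out, coreceptor and signalling genes had 1 of 13 higher without BLM 3 or BLM+HBO 1 and 3 of 13 without BLM+HBO 3, with a median between 0.03 and 0.17. Mature surface and presentation genes had 3 of 10 higher without BLM 1, BLM 2, BLM 3 or BLM+HBO 1 and up to 6 of 10, without BLM 4. The share of all tested genes that were higher at unadjusted P below 0.05 moved too. It ranged from 2.82% without BLM+HBO 1 to 7.48% without BLM+HBO 2, and was 5.74% without BLM 4 and 3.75% without BLM+HBO 3. Inhibitory receptors had 2 of 7 higher without BLM+HBO 1, where their median log2 fold change was 0.14, and 3 higher in each of the other fits. The lineage transcription factors had between 1 and 3 of 8 higher, with a median that was 0.01 without BLM+HBO 1 and 0.06 if BLM 3 was left out, and that was 0.37 if BLM 1 was left out. Survival and homing genes had 1 of 12 higher without BLM+HBO 1 and 4 of 12 without BLM+HBO 3 or BLM 4. Germinal centre and precursor genes had at most 1 in either direction. Heart muscle genes were higher in 3 of 6 without BLM+HBO 1 and in 5 or 6 of 6 in the other fits.

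The genes whose levels followed the members most closely were read as a description over the 7 mice, among 15795 tested genes with a mean of at least 1 CPM. Against the mean standardised profile of the 8 members other than Ebf1, Pearson's r was 0.992 for Plbd1, 0.989 for Tbc1d10c, 0.988 for Fcmr and 0.988 for Scn7a. Haao, Cxcr3, Tmem131l, Klrk1 and H2-Ob followed with r between 0.981 and 0.984. Fcmr and H2-Ob are the 2 of these 9 that are in the B cell lists, and Cxcr3 and Klrk1 are receptors of T cells and natural killer cells. For Ebf1 the closest genes were Ckmt2 (r = 0.992), 1110018N20Rik (0.985), Ckm (0.978), A530030E21Rik (0.976) and Fcho1 (0.975). Ckmt2 and Ckm are the creatine kinases of muscle, and they were not among the 9 closest to the other members. Members were not candidates here, and Pax5 had an r of 0.956 with Ebf1. A part of muscle tissue in the level of Ebf1 was not tested.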

How the data were processed

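Total RNA from the right lung lobes was made into libraries with a NEBNext Ultra kit. The authors used Trim Galore for trimming, HISAT2 (version 2.2.0 per the submitters' processing notes) for mapping on GRCm38, and featureCounts for counting. Its default settings are unstranded and discard multi-mapping reads as well as reads shared by genes. The deposited values were raw read counts per gene for each mouse, with the exon length of each gene model, and the annotation release was not given in the sources used here. Symbols were matched by gene ID to GENCODE annotation of the same build, and 55141 of 55401 IDs had one.

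Counts were tested with edgeR (version 4.0.16 in R 4.3.3) by the quasi-likelihood test after TMM normalization, on the 17465 genes that passed filterByExpr (minimum count 10, minimum total 15), with both groups in the fit, no covariate and Benjamini-Hochberg adjustment over all tested genes. A call needed a fold change over 1.5 and an unadjusted P under 0.05, the limits the study used. CPM used TMM-normalized library sizes, and log2 CPM a prior count of 2. The standard error was the log2 fold change divided by the square root of F. DESeq2 (1.42.0), limma-trend (3.58.1), other scalings, other filters, the robust option, a replicate block and leaving out each mouse were the alternatives. In 3 simulated datasets of this design over 17465 genes with 200 changed, 88.9% of the genes changed 2-fold and 2.27% of the unchanged genes were called. Each gene was drawn independently, so the simulated mice held no shift shared by many genes. These rates therefore do not cover genes that move together between mice, as the members did.

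Each library was from a separate mouse, and every pair of mice in a group differed by more than sampling noise. All 9 members were named with values per mouse. From each other list up to 4 genes with the smallest unadjusted P were named by rule, as well as markers below the filter, and the 9 and 5 genes most like the 8 other members and Ebf1. A few genes that these rules would name are not reported here, and the lists and counts leave them out. Syk, Lyn, Btk, Blnk, Ighm, Iglc2, Col1a2, Fas, Mzb1, Irf4, Prdm1 and Derl3 were named in addition, after their values were seen. Myl7, Tnnt2 and Abca3 were also named, where all genes of their lists were given. The members and lists were chosen with earlier results of these data known. Promoter windows were the 250 bases before each RefSeq start.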

Additional observations from a re-analysis of the deposited data

Results flagged for a closer look

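Of 33 sets of BLM values examined (n = 4), 2 held a mouse far from the others, where chance gives about 1 in 20. Cd22 was 24.1 CPM in BLM 4 and between 16.5 and 17.2 CPM in the other BLM mice, and the gap took 0.886 of the range on the log2 CPM scale, above the critical value of 0.829. Without BLM 4 the log2 fold change of Cd22 was 0.69 and Cd22 was called. The summed germinal centre genes were 165.4 CPM in BLM 3 and between 177.6 and 179.2 CPM in the other BLM mice, with a gap of 0.884 of the range.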

How the results depend on the processing

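The log2 fold change of all 9 members was positive under every alternative run. DESeq2 called 8 members and limma-trend 7, RLE and upper-quartile factors, a 1 CPM filter and the robust option 7 each, and no filter on low counts 8. DESeq2 called 2.34% of 32896 genes higher, since no filter on low counts came before it. This was 769 genes, against 594 by edgeR. Of 17465 genes, limma-trend called 3.28% higher. The share of the same 17465 genes was 3.36% with RLE factors, 3.69% with upper-quartile factors and 3.34% with the robust option. It was 3.3% of 15987 genes with the 1 CPM filter and 3.27% of 32896 genes with no filter. Fcrla passed P of 0.05 by DESeq2 and with no filter, with a log2 fold change of 0.79 in each. Without a filter 4 members (Cd79a, Cd79b, Ms4a1 and Pax5) had an adjusted P below 0.05, with 387 genes in all, and 1077 genes were called higher and 863 lower. By DESeq2 151 genes had an adjusted P below 0.05. With a mouse left out the log2 fold change ranged from 0.54 to 1.18 for Cd79a, 0.52 to 1.16 for Cd79b, 0.55 to 1.29 for Ms4a1, 0.30 to 0.69 for Cd22, 0.60 to 1.17 for Fcer2a, 0.57 to 1.28 for Blk, 0.26 to 1.05 for Fcrla, 0.93 to 1.48 for Pax5 and 0.45 to 0.76 for Ebf1. Members called ranged from 1 without BLM+HBO 1 to 9 without BLM+HBO 2, genes called higher from 345 to 946, genes called lower from 303 to 968, and genes at adjusted P below 0.05 from 0 to 267, the latter without BLM+HBO 2. Values that changed sign with a mouse left out were those of Bcl6 (-0.065 to 0.27), Vpreb1 (-0.14 to 0.56), Chst4 (-0.26 to 0.32), Cd8b1 (-0.10 to 0.90) and Sftpb (-0.096 to 0.54). The cause of these changes was not tested. Same-numbered mice did not deviate together (r of -0.01, -0.07 and 0.16), with 1 of 3 numbers closest to its own partner. With only 3 numbers this cannot exclude a pairing. With the replicate number as a block 8 members were called, with Cd22 added at 0.66, where 3.85% of all tested genes were called higher. Genes called higher were 672 and lower 586, and Chst4 was 0.12. Only BLM 4 had the number 4, so its block held no BLM+HBO mouse and this mouse did not bear on the group difference. The same 8 members were called in the fit without BLM 4. By limma-trend 49.0% of calls were higher and by edgeR 54.1%.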

Other observations

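Ighm, the constant region of IgM, was split in both groups. It was 400 CPM in BLM 1 and 379 CPM in BLM+HBO 1, against values between 52.2 and 110.8 CPM in the other mice, and its log2 fold change was 0.22 (standard error 0.69). BLM 1 was not among the high mice for any of the 9 B cell identity genes.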
